A study of Mus musculus with 198 samples.

Results

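The fibrillar collagens described here are the 6 genes that encode the chains of collagen types I, III and V: Col1a1, Col1a2, Col3a1, Col5a1, Col5a2 and Col5a3. They were taken by gene name and are 6 of the 56332 features in the deposited count table and 6 of its 44 collagen chain genes. The samples were whole tissues of C57BL/6 mice of both sexes in 2 arms, kept for 17 weeks on either anti-PAPP-A antibody (against pregnancy-associated plasma protein A) or the control; their age is not given in the labels, and no other allele or agent is named. The 12 control mice (6 of each sex) and 10 treated mice (5 of each sex) each gave 9 tissues (skin, gonadal and subscapular fat, heart, lung, liver, kidney, spleen and bone marrow), 22 libraries per tissue, with the mouse as the replicate.

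Fibrillar collagens are secreted as procollagen triple helices, trimmed at both ends and packed into cross-linked fibrils that carry tensile load. Type I collagen, assembled from a pair of Col1a1 chains and a Col1a2 chain, is the main collagen of skin, bone and tendon; type III, made of Col3a1 alone, lies beside it in extensible organs and vessel walls; the type V chains start new fibrils and limit their width. Fibroblasts and related stromal cells make most of these chains in soft organs, and osteoblasts make type I collagen in bone. PAPP-A is a secreted protease that cleaves IGF-binding proteins and so releases insulin-like growth factors.

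Total counts ran from 4138419 to 19517950 per library (median 8950258), and 9 abundant features, among them mt-Rnr1, mt-Rnr2 and Rn7s1, took 47.39% to 99.5% of them. The other features held 33377 to 4694597 counts (median 1099966.5). Levels are given as CPM, the count of a gene scaled to the total of its library outside those 9 features, with TMM scaling over all libraries. In 6 libraries the defining markers of the labelled tissue were far below the other libraries of that tissue, or few genes were counted: lung of control male 68, heart of control female 22 and treated male 56, gonadal fat of treated male 58, subscapular fat of control female 20, and skin of treated female 36, where 308 genes had at least 10 counts. Some results are also given without these libraries, called in doubt below, and all others include them. In whole tissue, fewer cells that make a chain and less RNA per cell cannot be told apart.

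In the mm10 annotation (GENCODE vM21) the genes lie at chr11:94936224-94953042 on the plus strand (Col1a1), chr6:4504814-4541544 on the plus strand (Col1a2), chr1:45311538-45349706 on the plus strand (Col3a1), chr2:27886425-28039514 on the plus strand (Col5a1), chr1:45374321-45503282 on the minus strand (Col5a2) and chr9:20770050-20815067 on the minus strand (Col5a3). Col3a1 and Col5a2 are neighbours that point towards each other, with 24614 bases between their ends. Annotated genes that overlap the chains held few counts over all libraries: at most 1361 (Gm38211, beside 30832 for Col5a2) and 976 (Gm43921, beside 83716 for Col1a2). Promoter sequence (RefSeq, GRCm38.p6) was found for 4 of the 6 genes. The 250 bases before the start are printed for 3 of them. Of these, Col3a1 and Col5a1 had the same order of tissue medians except for kidney and spleen, and Col5a3 had an order of its own. The windows are chr1:45311288-45311537 (plus strand) for Col3a1, chr2:27886175-27886424 (plus strand) for Col5a1 and chr9:20815068-20815317 (minus strand) for Col5a3, each written 5′ to 3′ along its gene.
Col3a1: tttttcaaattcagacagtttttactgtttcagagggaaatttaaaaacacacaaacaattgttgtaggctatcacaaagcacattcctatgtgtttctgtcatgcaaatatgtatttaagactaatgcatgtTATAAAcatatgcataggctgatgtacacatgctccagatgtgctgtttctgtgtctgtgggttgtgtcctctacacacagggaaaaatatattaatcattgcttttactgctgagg
Col5a1: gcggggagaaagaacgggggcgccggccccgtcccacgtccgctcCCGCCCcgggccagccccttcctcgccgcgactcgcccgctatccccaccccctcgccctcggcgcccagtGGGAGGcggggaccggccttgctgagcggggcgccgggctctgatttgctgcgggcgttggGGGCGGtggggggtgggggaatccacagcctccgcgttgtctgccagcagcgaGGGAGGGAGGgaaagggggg
Col5a3: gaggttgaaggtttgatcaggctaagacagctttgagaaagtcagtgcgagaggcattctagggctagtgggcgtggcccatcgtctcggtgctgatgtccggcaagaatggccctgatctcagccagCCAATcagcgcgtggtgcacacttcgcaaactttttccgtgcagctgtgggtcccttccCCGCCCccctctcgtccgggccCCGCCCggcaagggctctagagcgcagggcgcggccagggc
Capitals mark, on either strand, the TATA box word TATAAA, the CCAAT box word, and a pair of GC-rich words, GGGCGG in the first place and in the second GGGAGG. Overlapping matches run together. The Col3a1 window had 35.2% G and C and 1 TATAAA that begins 117 bases before the start. The Col5a1 window had 76.4% G and C with 2 matches to GGGCGG as well as 3 matches to GGGAGG, and the Col5a3 window had 62.8% with 1 CCAAT, which begins 122 bases before the start, and 2 GGGCGG. Of 32851 mouse promoter windows of the same length, 12.4% held TATAAA, 33.8% CCAAT, 32.7% GGGCGG and 38.0% GGGAGG, so each of these short words is common.

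In control mice all 6 chains were highest in gonadal fat and second highest in subscapular fat, and 5 of the 6 were lowest in bone marrow. Col5a3 was lowest in spleen. Across the 36 pairs of tissues, 173 of the 216 chain and pair tests passed (edgeR quasi-likelihood test, Benjamini-Hochberg adjusted p under 0.05 over all genes and pairs), against 63.6% of all gene and pair tests. This fit did not pair the tissues of a mouse. With the mouse as a block 5 calls were lost and 4 gained. Without the libraries in doubt 6 were lost and 3 gained. Col1a1 passed in 29 pairs, Col1a2 in 28, Col3a1 in 28, Col5a1 in 30, Col5a2 in 30 and Col5a3 in 28.

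Col1a1, the major type I chain, had a control median of 824 CPM in gonadal fat (294 to 1502), 385 CPM in subscapular fat (145 to 2204) and 297 CPM in skin (62.1 to 907). It was 116 CPM in lung (51.7 to 337), 78.0 CPM in heart (36.1 to 275), 72.8 CPM in spleen (39.0 to 122), 72.3 CPM in liver (24.5 to 409), 46.1 CPM in kidney (18.3 to 235) and 31.1 CPM in marrow (18.02 to 60.2). The highest median was 26.5 times the lowest, the smallest span of the 6 chains. The depots did not differ beyond their spread (log2 difference 0.45 ± 0.36, SE, edgeR adjusted p = 0.280), nor did lung and heart (0.31 ± 0.37, adjusted p = 0.476) or heart and spleen (0.51 ± 0.38, adjusted p = 0.239). Skin was above lung by 1.29 ± 0.37 (adjusted p = 0.00166). Kidney was above marrow by 0.97 ± 0.39 (adjusted p = 0.0257), but marrow minus kidney was -0.83 and did not pass with the mouse as a block (edgeR adjusted p = 0.0532), nor without control mouse 37 (-0.51, adjusted p = 0.260) or mouse 3 (-0.87, adjusted p = 0.0631). Spleen and liver had nearly equal medians. The fit, which follows the mean, put liver above spleen by 0.87 ± 0.39 (adjusted p = 0.0433), a call lost with the mouse as a block (0.72, edgeR adjusted p = 0.0882) and without any of control mice 18 (0.50, adjusted p = 0.277), 3, 4, 20, 55, 61, 68 or 71.

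Col1a2, the other type I chain, followed the same order in fat and skin, with medians of 1288 CPM in gonadal fat (390 to 2048), 471 CPM in subscapular fat (202 to 1961) and 255 CPM in skin (83.8 to 694). From skin down through lung (180 CPM), heart (137 CPM), spleen (102 CPM), kidney (73.1 CPM) and liver (53.4 CPM), no neighbouring pair differed beyond its spread (adjusted p from 0.1002 to 0.843, edgeR). In marrow the median was 9.25 CPM (4.80 to 19.4), and liver was above it by 3.56 ± 0.39 on the log2 scale (adjusted p = 3.4e-14). The span from gonadal fat to marrow was 139-fold, beside 26.5-fold for Col1a1.

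Col3a1, the type III chain, reached 4121 CPM in gonadal fat (1071 to 7040) and 1531 CPM in subscapular fat (503 to 5027). Its next tissues were heart at 386 CPM (282 to 572), lung at 286 CPM (218 to 1975), skin at 269 CPM (83.8 to 775) and liver at 164 CPM (57.8 to 862), whose neighbouring pairs did not differ beyond their spread (adjusted p from 0.103 to 0.865, edgeR). The lung maximum of 1975 CPM came from control male 68, the lung library whose markers of lung epithelium summed to 10.0 CPM, beside a control median of 20895, and whose adipocyte markers summed to 10162 CPM. Spleen had 75.8 CPM (31.4 to 117) and kidney 69.0 CPM (33.9 to 927), and the fit put kidney above spleen by 1.21 ± 0.39 (adjusted p = 0.00501), with 2 kidney libraries, of control mice 37 and 3, at 927 and 496 CPM. That call was lost with the mouse as a block (0.78, edgeR adjusted p = 0.0522) and without mouse 37 (0.65, adjusted p = 0.137) or mouse 3 (0.80, adjusted p = 0.0813).

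Marrow held almost no Col3a1. Its control libraries ran from 0 to 8.41 CPM (median 1.46), 33 counts in all, with 2 of 12 at 0. Kidney, the next tissue, was above it by 6.52 ± 0.54 on the log2 scale (adjusted p = 2.8e-20, edgeR), and the medians of gonadal fat and marrow were 2823 times apart. Osteoblast markers (Bglap, Bglap2, Sp7, Ibsp, Runx2 and Dmp1) summed to 51.8 to 95.8 CPM in control marrow, while their highest sum in any control library of another tissue was 22.0 CPM in spleen. Fibroblast markers (Pdgfra, Pdgfrb, Dpt, Pi16, Dcn, Lum and Col14a1) summed to 120 to 169 CPM in control marrow and to 1679 to 3163 CPM in gonadal fat. The part of these cells in the levels of the chains was not tested.

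Of the type V chains, Col5a1, present in every type V molecule, fell from 467 CPM in gonadal fat (312 to 695) and 192 CPM in subscapular fat (59.7 to 642) to 72.6 CPM in heart (51.0 to 153), 59.4 CPM in lung (25.4 to 302) and 45.3 CPM in skin (16.2 to 88.5). Liver had 43.8 CPM (17.9 to 114), kidney 30.3 CPM (18.9 to 112), spleen 25.2 CPM (10.4 to 30.3) and marrow 12.4 CPM (7.39 to 18.4). Gonadal fat was above subscapular fat by 0.75 ± 0.27 on the log2 scale (adjusted p = 0.0108, edgeR), and spleen above marrow by 0.88 ± 0.32 (adjusted p = 0.0131). Heart and lung did not differ beyond their spread (0.04 ± 0.28, adjusted p = 0.921).

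Col5a2, the usual partner of Col5a1, had medians of 494 CPM in gonadal fat (183 to 719), 191 CPM in subscapular fat (76.6 to 576), 72.1 CPM in lung (52.5 to 263), 58.1 CPM in heart (40.6 to 104), 45.2 CPM in kidney (15.6 to 116) and 40.2 CPM in skin (15.6 to 113). Lung, heart, kidney and skin did not differ between neighbours beyond their spread (adjusted p from 0.298 to 0.502, edgeR). Liver (23.2 CPM) and spleen (22.5 CPM) followed, and marrow had 1.90 CPM (0 to 5.66), and spleen was above it by 3.53 ± 0.43 on the log2 scale (adjusted p = 2.5e-12).

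Col5a3, the chain of a rarer type V form, had an order of its own below the fat depots, where its medians were 356 CPM (gonadal, 220 to 614) and 222 CPM (subscapular, 73.0 to 574). Liver followed at 52.1 CPM (26.0 to 80.6), then heart at 43.9 CPM (24.5 to 108.3), skin at 22.8 CPM (3.91 to 26.9) and marrow at 18.3 CPM (5.09 to 40.98). Lung had 8.19 CPM (2.19 to 172, the maximum again in control male 68), kidney 5.96 CPM (2.69 to 69.8) and spleen 1.97 CPM (0.697 to 7.25). Kidney was above spleen by 2.50 ± 0.58 (adjusted p = 0.000103, edgeR), whereas skin and marrow (0.13 ± 0.44, adjusted p = 0.815) and the depots (0.45 ± 0.35, adjusted p = 0.260) did not differ beyond their spread. The ranks of liver and marrow were thus higher for Col5a3 than for the other 5 chains.

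**Figure D1:**
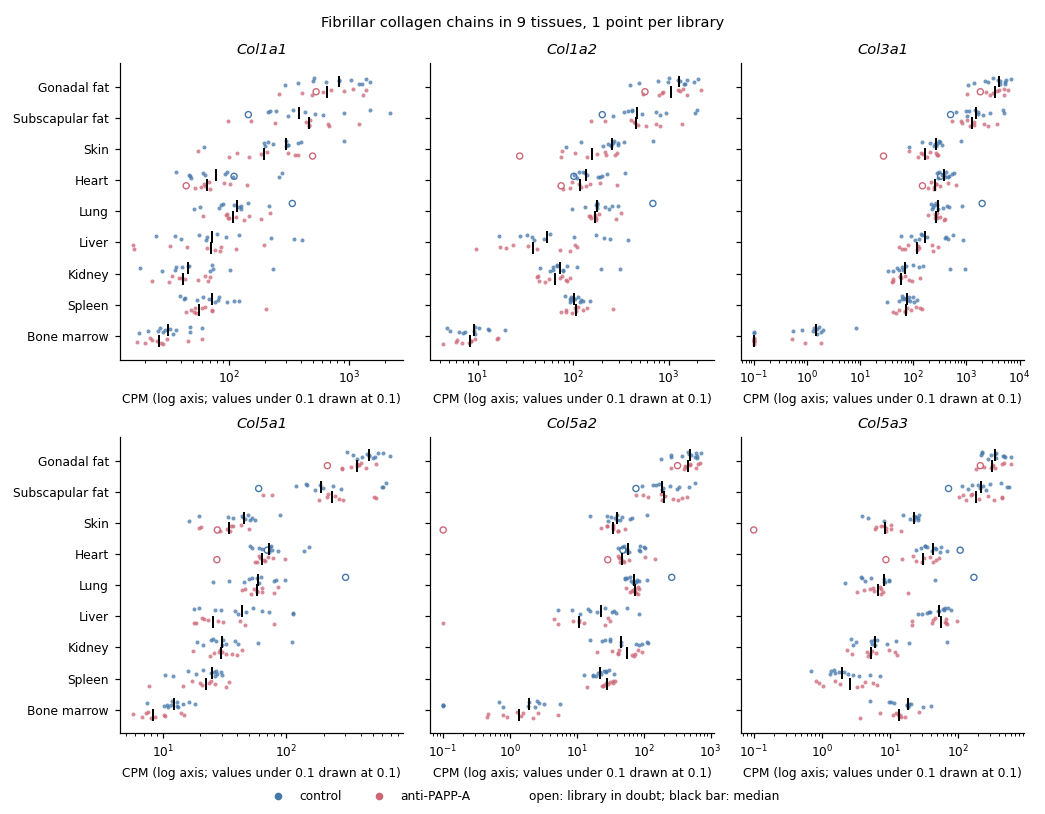
CPM (log axis) of each chain in each tissue, 1 point per library, for control (blue) and anti-PAPP-A mice (red), with the median as a black bar and the 6 libraries in doubt as open points. Both fat depots lie to the right for all 6 chains, marrow lies at the far left for Col3a1 and Col5a2, and the arms overlap in every tissue.

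Levels of different chains can be compared only per length, for which CPM was divided by the length of the longest coding transcript (5930 bases for Col1a1, 5348 for Col1a2, 5564 for Col3a1, 8406 for Col5a1, 6625 for Col5a2 and 6119 for Col5a3). On that scale Col3a1 made up a median of 54.8% of the 6 chains in control gonadal fat, 50.05% in heart, 49.0% in subscapular fat, 44.9% in lung and 42.7% in liver. In skin Col1a1 (30.5%), Col3a1 (29.9%) and Col1a2 (29.4%) had nearly equal shares, and in spleen Col1a2 had the highest at 39.5%. Marrow differed in composition: Col1a1 held 43.7%, Col5a3 25.2%, Col1a2 13.2%, Col5a1 11.1%, Col3a1 2.38% and Col5a2 2.11%. These marrow shares rest on median counts per control library of 44.5, 24.5, 14, 18.5, 2 and 3, in that order. They varied between libraries, for Col1a1 from 33.4% to 63.1% and for Col5a3 from 6.56% to 38.4%. Col5a3 held 10.5% in liver and 0.668% in spleen.

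Ratios of 2 chains within a library do not depend on the scaling of that library. A pseudocount of 0.5 was added to each count, so at low counts the ratios do depend on depth. In 5 ratios, computed where the 2 counts summed to at least 20, 110 of 180 tests between tissues of the same control mice passed (exact sign-flip permutation test over mice, 2-sided, adjusted over the 180). The smallest p that 12 mice allow is 0.000488. Per length, the control median of Col1a1/Col1a2 was 3.29 in marrow (1.67 to 5.80), 1.11 in liver (0.572 to 2.29), 1.02 in skin (0.664 to 1.56) and 0.410 to 0.685 in the other 6 tissues, the lowest in heart. Marrow exceeded skin by 1.66 ± 0.17 on the log2 scale in 12 of 12 mice (exact permutation p = 0.000488, adjusted p = 0.00225), and liver by 1.52 ± 0.30 in 11 of 12. Liver and skin did not differ beyond their spread (0.14 ± 0.22, higher in 6 of 12 mice, exact adjusted p = 0.590). The absolute ratio depends on the lengths used: with the union of all exons in place of the longest transcript the marrow median was 6.90, but the order of the tissues is the same by construction. Control marrow libraries had a median of 14 counts of Col1a2, the lowest 3.

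Col3a1/Col1a1 differed most between tissues, in 28 of 36 pairs. Its control median per length was 5.56 in heart (1.84 to 10.3), 4.53 in gonadal fat (3.69 to 6.73), 3.62 in lung, 3.52 in subscapular fat and 2.35 in liver. It was 1.75 in kidney, 1.36 in spleen, 1.00 in skin (0.733 to 1.43) and 0.0583 in marrow (0.0227 to 0.154). The control marrow libraries had a median of 2 counts of Col3a1, with 2 of 12 at 0, so the size of the marrow ratio depends on the pseudocount and on depth. Heart exceeded skin by 2.26 ± 0.22 on the log2 scale in 12 of 12 mice (exact permutation, adjusted p = 0.00225), and gonadal fat and heart did not differ beyond their spread (-0.07 ± 0.23, gonadal fat minus heart, higher in gonadal fat in 5 of 12 mice, exact adjusted p = 0.801).

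Against Col1a1, the type V chain Col5a1 was lowest in skin: its control median ratio per length was 0.116 there (0.0646 to 0.188) and up to 0.630 in heart (0.374 to 1.14). Skin was below each of the other 8 tissues (exact permutation, adjusted p from 0.00225 to 0.0267), with heart above it by 2.55 ± 0.20 on the log2 scale in 12 of 12 mice and a difference of -1.03 ± 0.33 from spleen, lower in 10 of 12. Col5a1/Col1a1 passed in 22 of 36 pairs.

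Within type V, Col5a2/Col5a1 had the fewest pairs past the threshold, 14 of 36. Its control median per length was 2.03 in kidney (0.807 to 3.44), between 1.09 and 1.35 in the fat depots, heart, lung, skin and spleen, 0.574 in liver and 0.245 in marrow, where 7 of 12 libraries had enough counts. This count rests on few mice: it was 5, 6, 6, 6, 9 and 9 without control mice 4, 3, 20, 55, 45 and 61 in turn. It was 2 where the counts had to sum to 50, and 22 with all 22 mice. The exact test limits it too. Marrow was below skin and below spleen in 6 of 6 mice (exact permutation p = 0.03125, adjusted p = 0.0502), the smallest p that 6 mice allow. With fewer mice in a pair this limit rises, so a pair that is lost need not differ less. Col5a3/Col5a1 passed in 26 pairs, with control medians of 2.12 in marrow (0.616 to 4.12), 1.49 in liver (0.323 to 4.56), 1.35 in subscapular fat and 0.995 in gonadal fat, and then 0.675 in heart, 0.643 in skin, 0.296 in kidney, 0.175 in lung and 0.121 in spleen. Marrow exceeded lung by 3.14 ± 0.42 on the log2 scale in 12 of 12 mice (exact permutation, adjusted p = 0.00225). Marrow and liver did not differ beyond their spread (0.28 ± 0.54, exact adjusted p = 0.638). With counts summing to 50, Col5a3/Col5a1 passed in 5 pairs and Col3a1/Col1a1 in 18.

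**Figure D2:**
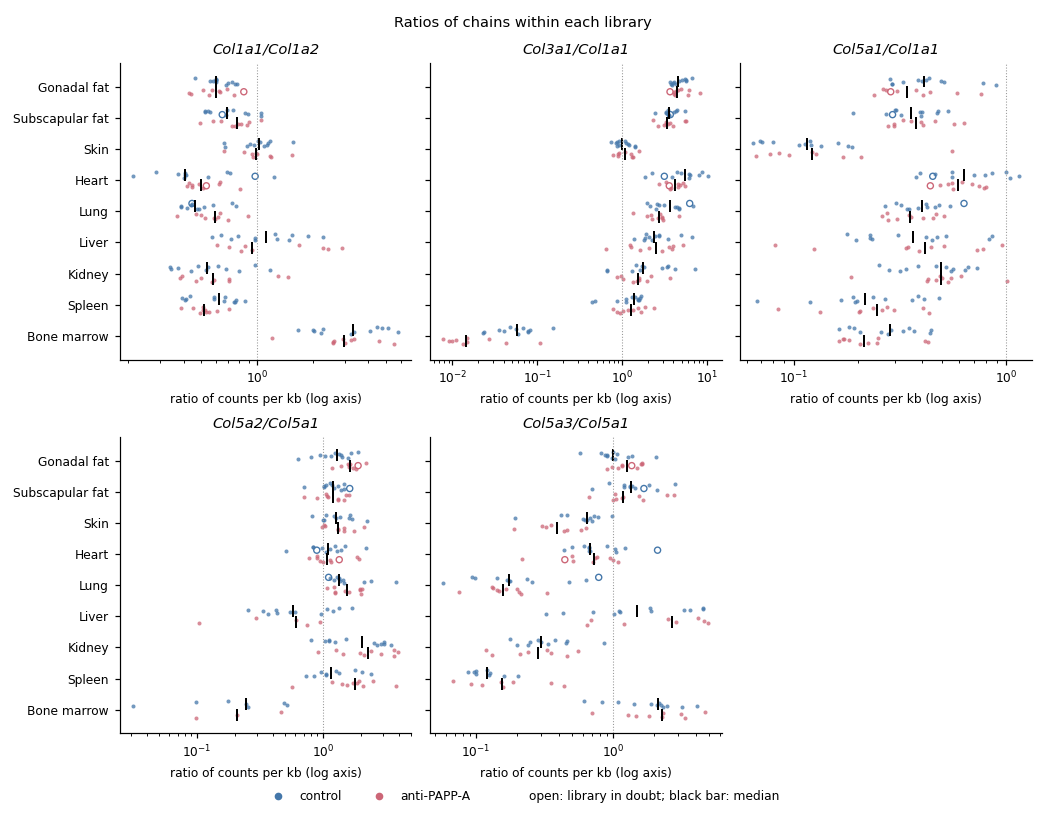
Ratio of the counts per kb of 2 chains within each library (log axis; the dotted line marks a ratio of 1) by tissue, for control (blue) and anti-PAPP-A mice (red), with medians as black bars. Marrow stands at the right for Col1a1/Col1a2 and at the far left for Col3a1/Col1a1, and skin stands at the left for Col5a1/Col1a1.

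The comparison of the arms asked whether the antibody changed the chains in each tissue. No chain passed in any tissue: 0 of 47 chain and tissue tests had an adjusted p under 0.05 by edgeR (lowest 0.655), and 0 by DESeq2 or limma-voom. Over all genes the share called was 0.00776% in bone marrow and 0% in gonadal fat, heart, kidney, liver, lung, skin, spleen and subscapular fat. At an unadjusted p under 0.05 there were 13 of 47, all lower in treated mice. They were 4 of 5 in liver (316 of 8897 genes), 3 of 5 in skin (316 of 9894) and 2 of 5 in kidney (485 of 11476). In heart they were 2 of 6 (306 of 11252), in gonadal fat 1 of 6 (607 of 11993) and in marrow 1 of 4 (904 of 12891). There were 0 in lung (887 of 12886), spleen (637 of 11978) and subscapular fat (261 of 11019). Of the 47 estimates 41 were below 0, with a median of -0.33 on the log2 scale and a range from -1.41 to 0.28. Leaving out the 6 libraries in doubt, 35 of 47 were below 0. The chains of a tissue are read from the same libraries and vary together, so these 47 are not independent. The ranges of treated and control mice overlapped in all 47.

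By tissue, the median estimate of the chains tested was -0.88 in liver (5 chains), -0.53 in kidney (5), -0.52 in skin (5), -0.38 in heart (6), -0.29 in marrow (4), -0.26 in lung (5), -0.25 in subscapular fat (6), -0.10 in gonadal fat (6) and 0.13 in spleen (5). The median over all genes tested lay between -0.03 and 0.01 in each tissue. In spleen 4 of the 5 chains had estimates above 0. For Col1a1 (0.04 ± 0.24) the treated median was nevertheless lower, 56.4 beside 72.8 CPM, with 8 of 10 treated mice below the control median. Treated female 6 stood apart at 203 CPM (next highest 72.9). The treated median was also lower for Col3a1 (72.9 beside 75.8 CPM), and higher for Col1a2 (107 beside 102 CPM) and Col5a2 (28.6 beside 22.5 CPM).

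In skin, Col1a2 ran from 83.8 to 694 CPM in control mice (median 255) and from 27.6 to 285 CPM in treated mice (median 158). The treated median was lower, with 8 of 10 treated mice below the control median and overlapping ranges. The log2 fold change was -0.83 ± 0.24 (SE, edgeR, unadjusted p = 0.00236, adjusted p = 1.00), and -0.79 without the skin library of treated female 36, in which Col1a2 had 1 count. Col3a1 ran from 83.8 to 775 CPM (median 269) in control skin and from 27.6 to 297 CPM (median 166) in treated skin, a log2 fold change of -0.72 ± 0.25. Col5a1 gave -0.47 ± 0.22, Col5a2 -0.49 ± 0.24 and Col1a1 -0.52 ± 0.35, which was -0.79 without that library (edgeR adjusted p = 1.00). The fibroblast markers summed to 54.7 to 439 CPM in control skin (median 264) and to 27.6 to 430 CPM in treated skin (median 283). Their part in the result was not tested.

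Col5a3 had too few counts in skin for the edgeR filter. It ran from 3.91 to 26.9 CPM in control skin (median 22.8; 226 counts over 12 libraries) and from 0 to 14.7 CPM in treated skin (median 8.53; 73 counts over 10 libraries). All 10 treated values were below the control median, and the ranges overlapped. Without the filter its log2 fold change was -1.06 (edgeR, adjusted p = 0.857).

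In liver, Col1a2 ran from 16.7 to 379 CPM in control mice (median 53.4) and from 9.70 to 111 CPM in treated mice (median 37.8), a log2 fold change of -1.18 ± 0.42 (adjusted p = 1.00, edgeR). Col3a1 ran from 57.8 to 862 CPM (median 164) and from 53.8 to 294 CPM (median 119), a change of -1.11 ± 0.38, and Col1a1 from 24.5 to 409 CPM (median 72.3) and from 15.8 to 196 CPM (median 70.96), a change of -0.88 ± 0.37. The highest libraries of all 3 were controls, while the medians of Col1a1 were nearly equal. Col5a1 gave -0.59 ± 0.23 and Col5a3 0.02 ± 0.20. The fibroblast markers summed to 412 to 868 CPM in control liver (median 675) and 381 to 648 CPM in treated liver (median 522). Their part in the result was not tested.

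In kidney the estimates rest on a pair of control libraries. Col3a1 was 927 CPM in control male 37 and 496 CPM in control female 3, beside a control median of 69.0 and a treated range of 40.1 to 133 CPM (median 58.3). The log2 fold change of -1.41 ± 0.52 (edgeR, unadjusted p = 0.0120, adjusted p = 1.00) was -0.82 without mouse 37 and -0.84 without mouse 3. Col1a2, at 312 CPM and 194 CPM in those libraries, gave -0.65 ± 0.29, and -0.37 and -0.44 without them. Control male 37 also had the highest sum of adipocyte markers in kidney, 1699 CPM beside a control median of 145 CPM, and of fibroblast markers, 928 CPM beside 408 CPM. Their part in the result was not tested. Col5a2, the chain nearest to Col3a1 on the chromosome, gave -0.05 ± 0.25 in kidney.

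In heart, Col3a1 ran from 282 to 572 CPM in control mice (median 386) and from 149 to 634 CPM in treated mice (median 257), a log2 fold change of -0.43 ± 0.20 (edgeR adjusted p = 1.00; -0.34 without the libraries in doubt). Col5a3 ran from 24.5 to 108.3 CPM (median 43.9) and from 8.77 to 53.5 CPM (median 30.7), a change of -0.59 ± 0.27. Its highest control and its lowest treated value were the 2 heart libraries in doubt, and without them the change was -0.30. The heart library of control female 22 had adipocyte markers of 7588 CPM beside a control median of 880 CPM. Their part in the result was not tested.

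In bone marrow, Col5a1 ran from 7.39 to 18.4 CPM in control mice (median 12.4) and from 5.69 to 14.9 CPM in treated mice (median 8.28), a change of -0.46 ± 0.17 (edgeR, unadjusted p = 0.0139, adjusted p = 0.655). Osteoblast markers summed to 51.8 to 95.8 CPM (median 73.8) in control and 55.8 to 110 CPM (median 87.7) in treated marrow. Col3a1, left out by the filter, had 33 counts over the 12 control libraries and 7 over the 10 treated libraries, of which 2 and 7 were at 0. Without the filter its log2 fold change was -2.002 (edgeR, adjusted p = 0.704), a fitted value that depends on the prior count.

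Besides Col5a3 in skin and Col3a1 in marrow, 5 of the 54 chain and tissue pairs were left out by the filter. Col5a3 in lung had 519 control counts, 292 of them in control male 68, and 81 treated counts. In kidney it had 259 and 63 counts, and in spleen 35 and 36. Col5a2 had 283 control and 105 treated counts in liver, and 34 and 30 in marrow. Without the filter their adjusted p ran from 0.680 to 0.941 (edgeR), with log2 fold changes from -1.45 (Col5a3, lung) to 0.43 (Col5a3, spleen).

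In gonadal fat, Col5a1 ran from 312 to 695 CPM in control mice (median 467) and from 215 to 531 CPM in treated mice (median 375). It was below the control median in 9 of 10 treated mice (-0.39 ± 0.15, edgeR, unadjusted p = 0.0160, adjusted p = 0.979; -0.32 without the library in doubt). The other 5 chains lay between -0.17 and 0.01 there. In lung Col3a1 gave -0.67 ± 0.35 and Col1a1 -0.05 ± 0.29. Without control male 68 they were -0.26 and 0.18, and Col1a2 (0.01), Col5a1 (0.05) and Col5a2 (0.04), which had been between -0.33 and -0.25, lay near 0. In spleen Col5a2 was above the control median in 9 of 10 treated mice (0.28 ± 0.14, edgeR, unadjusted p = 0.0512, adjusted p = 0.929). Subscapular fat had no chain with an unadjusted p under 0.05, with standard errors of 0.34 to 0.47.

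**Figure D3:**
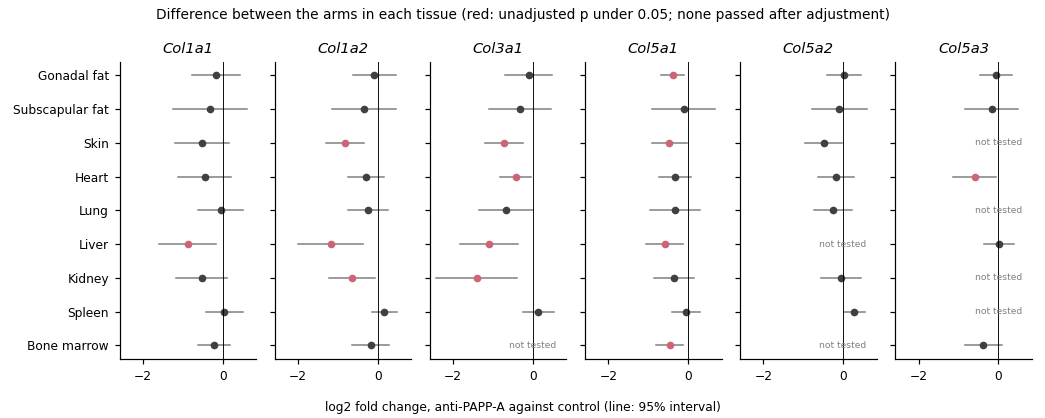
Log2 fold change of each chain, anti-PAPP-A against control, in each tissue (point) with its 95% interval (line), from the edgeR fit. Red points have an unadjusted p under 0.05, and 41 of the 47 points lie left of 0.

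With the 9 tissues of a mouse averaged on the log2 scale, 3 chains could be tested (limma, 22 mice, 6458 genes counted in every tissue). Col5a1 was lower in treated mice by a log2 difference of -0.26 ± 0.07 (unadjusted p = 0.00172), Col1a2 by -0.32 ± 0.11 (p = 0.00626) and Col1a1 by -0.23 ± 0.11 (p = 0.0364). None passed after adjustment (adjusted p = 0.868 for each), and 0% of all genes passed, with 235 at an unadjusted p under 0.05. The median gene gave -0.04.

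A difference of the arm effect between tissues passed for 0 of the 6 chains (edgeR with the mouse as a term, adjusted p from 0.946 to 1.00, 0 at an unadjusted p under 0.05, 0 by limma-voom), beside 0.436% of all genes. A difference of the arm effect between the sexes passed in 0 of 47 tests by edgeR (3 at an unadjusted p under 0.05; 0.000978% of all gene and tissue tests passed, and 0 of the 47 by limma-voom). The 3 were Col1a1, Col1a2 and Col5a1 in lung, where 1009 of 12886 genes were at that unadjusted p. Their differences of male minus female effects were -1.27 ± 0.52, -1.003 ± 0.48 and -1.25 ± 0.59 on the log2 scale (edgeR adjusted p from 0.5999 to 0.635). Without control male 68, the lung library in doubt, they were -0.83, -0.50 and -0.54 (edgeR, unadjusted p from 0.0596 to 0.157).

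Between the arms, 0 of 40 ratio and tissue tests passed (permutation of the arm labels within each sex, 100000 resamples, adjusted over the 40), and 2 had an unadjusted p under 0.05. In marrow the log2 ratio Col3a1/Col1a1 averaged -4.30 in control and -5.91 in treated mice, a difference of -1.62 ± 0.40 (permutation p = 0.00247, adjusted p = 0.0988). It was -2.60 in males and -0.63 in females, and 1 of 10 treated mice lay above the control median. This ratio rests on at most 13 counts of Col3a1 in a library, those of control male 68. With 7 of 10 treated libraries at 0 counts of Col3a1, the size of the difference depends on the pseudocount of 0.5 and on the Col1a1 count. Without treated female 33, the treated mouse with 4 of those counts, the difference was -1.88 and passed (adjusted p = 0.00442). In gonadal fat Col5a2/Col5a1 averaged -0.08 in control and 0.37 in treated mice on the log2 scale, a difference of 0.45 ± 0.15 (permutation p = 0.00988, adjusted p = 0.198), above the control median in 9 of 10 treated mice.

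Sex was compared in the same fits. Of 47 chain and tissue tests, 5 passed (edgeR, adjusted p under 0.05): 4 of the 5 chains tested in liver and 1 of the 5 tested in kidney. Over all genes 28.4% passed in liver, 26.1% in kidney, 15.5% in subscapular fat, 15.1% in gonadal fat, 4.53% in spleen, 0.721% in marrow, 0.313% in skin, 0.187% in heart and 0.14% in lung. The 1 of 5 in kidney is near that background. In liver 3 chains were lower in males and Col5a3 was higher.

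Liver Col1a1 ran from 39.8 to 409 CPM in females (median 95.1) and from 15.8 to 121 CPM in males (median 45.2), with 1 of 11 males above the female median. Its log2 difference, male minus female, was -1.75 ± 0.36 (adjusted p = 0.000923, edgeR). Col1a2 ran from 36.98 to 379 CPM in females (median 92.8) and from 9.70 to 172 CPM in males (median 28.0), -1.59 ± 0.40 (adjusted p = 0.005). Col5a1 ran from 18.5 to 114 CPM in females (median 47.0) and from 17.8 to 53.2 CPM in males (median 26.2), -1.22 ± 0.23 (adjusted p = 0.000334). All 3 overlapped between the sexes, with most males under the female median. Col3a1, with medians of 225 CPM in females and 122 CPM in males, gave -0.93 ± 0.37 and did not pass (adjusted p = 0.0588).

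Col5a3 moved the other way in liver. It ran from 20.9 to 68.3 CPM in females (median 37.7) and from 43.3 to 96.9 CPM in males (median 65.7), and all 11 males were above the female median. The difference was 0.76 ± 0.19 (adjusted p = 0.00523, edgeR). The direction was the same in each arm: control medians were 36.4 CPM in females and 64.3 CPM in males, and treated medians 41.5 and 66.3 CPM. Fibroblast markers summed to similar ranges in liver, 381 to 820 CPM in females (median 593) and 412 to 868 CPM in males (median 563), while adipocyte markers were higher in males (68.4 to 167 CPM, median 88.1) than in females (32.5 to 89.3 CPM, median 51.7). Their part in the result was not tested. All 5 sex differences kept their direction and stayed past the threshold without any 1 mouse, by DESeq2 and by limma-voom.

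In kidney, Col5a2 ran from 45.03 to 116 CPM in females (median 77.7) and from 15.6 to 110 CPM in males (median 31.1). The highest male was control mouse 37, the only male above the female median, and the difference was -1.03 ± 0.25 (adjusted p = 0.00304, edgeR). The other 4 chains tested in kidney lay between 0.15 and 0.60. In skin the estimates of Col1a1 (0.85 ± 0.35), Col1a2 (0.88 ± 0.24) and Col3a1 (0.74 ± 0.24), male minus female, did not pass (edgeR adjusted p from 0.156 to 0.398). Median Col1a2 was 139 CPM in female and 266 CPM in male skin, with 10 of 11 males above the female median.

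**Figure D4:**
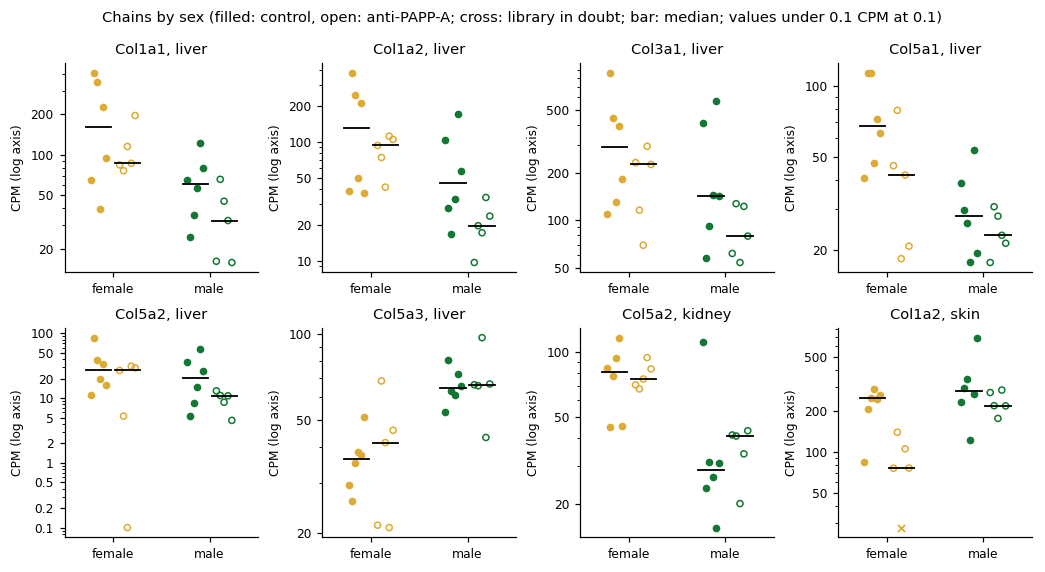
CPM (log axis) of the 6 chains in liver, of Col5a2 in kidney and of Col1a2 in skin by sex, for control (filled) and anti-PAPP-A mice (open), with the median as a bar and a library in doubt as a cross. In liver the male points lie lower for Col1a1, Col1a2 and Col5a1 and higher for Col5a3.

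Across the 22 libraries of a tissue the chains varied together to different degrees, given here as Pearson's r of log2 CPM. These libraries share arms, sexes and cell composition, so r describes them and has no p. Col1a2 and Col3a1 had r of 0.97 in gonadal fat and skin, 0.95 in subscapular fat, 0.92 in kidney, 0.91 in liver, 0.88 in heart, 0.83 in lung, 0.62 in spleen and 0.11 in marrow, where Col3a1 is near 0. Without the library in doubt the lung value was 0.61. Col1a1 and Col1a2 had r of 0.96 in subscapular fat and 0.37 in marrow. Col3a1 and Col5a2, whose genes are neighbours, had r between 0.80 and 0.96 in 6 tissues, 0.55 in spleen, 0.27 in kidney and 0.06 in marrow. Without the libraries in doubt this r was 0.60 in skin and 0.67 in lung.

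Over all libraries with the tissue means removed, the 5 pairs that hold Col5a3 had r from 0.31 to 0.47 and the other 10 pairs from 0.45 to 0.85. In liver the r of Col5a3 with the other 5 chains was negative, from -0.57 with Col1a2 to -0.38 with Col5a2. Since the sexes differ in opposite directions there, r was also taken within each sex over 11 libraries: it was -0.47 to -0.03 in females and -0.37 to 0.16 in males. In lung its r of 0.58 to 0.91 with the other chains fell to between 0.31 and 0.77 without control male 68.

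**Figure D5:**
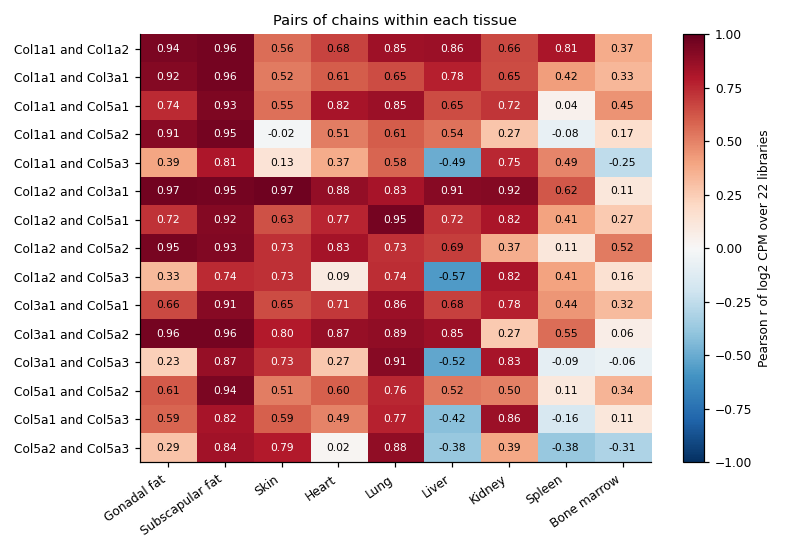
Pearson's r of log2 CPM for each pair of chains (rows) over the 22 libraries of each tissue (columns), from -1 (blue) to 1 (red). The liver column is negative for the 5 pairs that hold Col5a3, and no pair in the marrow column is above 0.52.

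Likeness to other genes was taken as r over all libraries after the mean of each tissue was removed, among 14136 genes. Nearest to Col1a2 were Col6a2 (0.76), Col6a3 (0.72), Col6a1 (0.70), chains of the beaded collagen VI, with Fbn1 (0.68), the microfibril protein fibrillin, and Mmp2 (0.63), a gelatinase. Nearest to Col3a1 were Fbn1 (0.76), Col6a3 (0.72), Col6a1 (0.71), Vim (0.71) and Col6a2 (0.70), and to Col5a2 Col6a1 (0.71), Col6a3 (0.70), Emp1 (0.69), Sparc (0.68) and Fbn1 (0.67). Col1a1 had lower values, with Fstl1 (0.57), Col6a2 (0.57), Il1r1 (0.53), Map1a (0.52) and Col6a3 (0.52).

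For Col5a1 the nearest genes were Nid1 (0.71), which encodes a basement membrane linker, Col6a2 (0.67), Col15a1 (0.66), Col6a3 (0.65) and Adcy5 (0.62). For Col5a3 no collagen was among them: they were Plin4 (0.68), a lipid droplet coat protein, Steap4 (0.61), Mmd (0.58), Lipe (0.56), the hormone-sensitive lipase, and Eepd1 (0.55). Their r over the 9 control tissue means was 0.83 to 0.97. Without the 6 libraries in doubt, a check chosen after seeing the data, r was 0.55 for Plin4, 0.45 for Steap4, 0.40 for Mmd, Lipe and Eepd1, and between 0.49 and 0.74 for the genes nearest to the other 5 chains.

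The genes that fold, trim, cross-link, bind and degrade fibrillar collagens were read from 8 lists (other fibrillar chains, folding and hydroxylation, propeptide removal, cross-linking, fibril partners, receptors, breakdown and upstream signals), and none of them passed between the arms in any tissue (edgeR; 0 by limma-voom). Of the fibril partners 12 of 12 tested in kidney, 12 of 12 in lung, 8 of 9 in liver and 9 of 12 in skin had estimates below 0, with medians of -0.41, -0.26, -0.32 and -0.49, beside medians of all genes near 0. In skin the smallest p belonged to Col6a2 (-0.81 ± 0.22) and Col12a1 (-0.70 ± 0.21), a collagen that coats fibrils, and in liver to Col6a1 (-0.98 ± 0.29) and Col6a3 (-0.95 ± 0.29). Of the folding and hydroxylation enzymes 7 of 10 in skin lay below 0 (median -0.17), with Ppib, the prolyl isomerase cyclophilin B, at -0.39 ± 0.17 and P4ha2, a prolyl 4-hydroxylase subunit, at -0.48 ± 0.22. The remaining lists were mixed in skin. Below 0 were 1 of 5 receptors (median 0.18), 1 of 2 cross-linking genes (0.04) and 2 of 4 upstream signals (-0.03). So were 4 of 4 breakdown genes (-0.16), 5 of 6 of propeptide removal (-0.15) and 1 of 1 other fibrillar chain (-0.24). In the other tissues 12 of 14 fibril partners in gonadal fat (median -0.25), 11 of 12 in heart (-0.27), 12 of 13 in subscapular fat (-0.15), 2 of 4 in marrow (-0.01) and 3 of 13 in spleen (0.07) lay below 0. Without the libraries in doubt the fibril partner medians were -0.14 in gonadal fat, -0.18 in heart, -0.22 in subscapular fat and -0.48 in skin. Without control male 68 the lung count was 9 of 11 (median -0.12), and without control mouse 37, an alternative chosen after seeing the data, the kidney count was 11 of 12 (median -0.21).

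Between the sexes, 9 of 32 genes of the pathway lists tested in liver passed (28.1%, beside 28.4% of all genes), 5 of 45 in kidney (11.1%, beside 26.1%), 10 of 63 in gonadal fat (15.9%, beside 15.1%), 4 of 53 in subscapular fat (7.55%, beside 15.5%), 1 of 48 in spleen (2.08%, beside 4.53%) and 0 in the other 4 tissues. These shares are near or below the background. In liver Bgn (biglycan, -0.98 ± 0.10, male minus female), Col6a3 (-1.33 ± 0.28), Col6a1 (-0.87 ± 0.27), Tnxb (tenascin X, -1.02 ± 0.25), Fn1 (fibronectin, -0.31 ± 0.11), Loxl2 (a cross-linking oxidase, -1.10 ± 0.22) and Mmp14 (a membrane collagenase, -0.70 ± 0.12) were lower in males. P4hb (0.44 ± 0.09), the shared subunit of the prolyl hydroxylases, and Itgb1 (0.30 ± 0.11), the beta subunit of the collagen-binding integrins, were higher (edgeR adjusted p under 0.05 for each). In kidney Bmp1 (-0.71 ± 0.23), the procollagen C-proteinase, its enhancer Pcolce (-0.43 ± 0.10) and Smad3 (-0.24 ± 0.08) were lower in males, and P4hb (0.30 ± 0.08) and Mia3 (0.29 ± 0.08), which loads procollagen for export, were higher.

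In gonadal fat, where no chain passed, Ctsk (cathepsin K, 1.51 ± 0.31), Col12a1 (1.10 ± 0.24), Fn1 (0.99 ± 0.29), Lox (lysyl oxidase, 0.75 ± 0.25), Tgfbr1 (0.45 ± 0.10), Itgb1 (0.38 ± 0.08), Plod1 (0.35 ± 0.12) and Sec24d (0.33 ± 0.11) were higher in males, and Thbs2 (thrombospondin 2, -1.16 ± 0.19) and Tgfbr2 (-0.53 ± 0.13) were lower. In subscapular fat Mrc2 (1.504 ± 0.45), a collagen uptake receptor, Col27a1 (1.47 ± 0.48) and Itga1 (0.63 ± 0.17) were higher in males and Plod2 (-1.38 ± 0.26), a lysyl hydroxylase, was lower. In spleen Serpinh1 (0.42 ± 0.12), the collagen chaperone Hsp47, was higher in males.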

How the data were processed

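RNA from whole tissues was sequenced after stranded total RNA library preparation, per the labels' protocols. The authors deposited 1 table of whole-number counts per feature and library. The submitters' processing notes name FastQC 0.11.5, Salmon and mm10; how Salmon's estimates became whole numbers is not given in the sources used here. No pair of libraries of a tissue held the same values. The members and gene lists were chosen with earlier results of these data known.

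Tissue pairs (control mice, 36 pairs), arms, sexes and interactions were tested with edgeR 4.0.16 (quasi-likelihood test, TMM, filterByExpr, Benjamini-Hochberg, threshold 0.05) in R 4.3.3, with arm and sex as terms within a tissue. The 9 most abundant features (each over 0.9% of counts on average) were left out of CPM and of fits across tissues. Values averaged over tissues were tested with limma 3.58.1. DESeq2 1.42.0 and limma-voom were alternatives. Log2 ratios of counts (pseudocount 0.5, counts summing to at least 20) were tested by permutation with scipy 1.17.1: exact sign flips within mice between tissues, and 100000 resamples within sex between arms. The tests were checked on simulated data. Mouse numbers pair tissues of the same animal, per the labels, and no mouse is in both arms.

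Named were the 6 chains, the 5 genes most like each (r of log2 CPM over all libraries after the tissue means were removed, genes of at least 1 CPM in every tissue), at most the 2 genes of smallest p per pathway list and tissue, and every pathway gene past the threshold. A library was in doubt where the mean log2 CPM of its tissue's markers was over 2 below the tissue median or fewer than 1000 genes had 10 counts.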

Additional observations from a re-analysis of the deposited data

Results flagged for a closer look

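In 101 groups of 10 or fewer libraries (54 of levels and 47 of ratios), 9 had a sample set apart from the others by more than Dixon's 95% critical value. About 1 in 20 groups would be expected by chance if values were normally distributed and groups independent. Levels were tested as CPM without logs, and chains of a library vary together. The 9 of 101 therefore cannot be read against that share. Larger groups were not tested, among them every control group of levels, so control levels far from the others could not be flagged. In spleen, treated female 6 had Col1a1 at 203 CPM (next highest 72.9, 213 counts) and Col1a2 at 259.2 CPM (next 138), so both type I chains stood apart in the same library. Treated female 33 had Col5a1 in liver at 78.82 CPM (next 45.9), Col5a3 in lung at 18.68 CPM (next 7.98, 24 counts) and Col3a1 in marrow at 1.822 CPM (next 0.901, 4 counts). Treated male 56 had Col1a1 in subscapular fat at 1214 CPM (next 684), and treated male 58 had Col5a2 in marrow at 5.274 CPM (next 2.65, 11 counts). Among the log2 count ratios, Col1a1/Col1a2 in marrow of treated female 9 was 0.4218 (nearest 1.51) and Col5a1/Col1a1 in kidney of treated male 62 was -1.932 (nearest -0.74).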

How the results depend on the processing

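Of 268 values of 44 results recomputed under alternatives that kept every mouse, 263 were judged unchanged. With 1 mouse left out, 764 of 772 were. A single estimate was judged unchanged where it kept its direction and side of the threshold. A change of size was not counted: Col5a3 in heart went from -0.59 to -0.30 without the libraries in doubt and was judged unchanged. The 13 arm estimates among them had adjusted p of at least 0.655 (edgeR). They were thus far from the threshold, and keeping their side of it says little. A count was judged unchanged where it stayed within a set factor of the main count, so the calls behind it could still change. Single chain and tissue pair calls are not among these: 1 to 8 were lost and 1 to 21 gained under each alternative that kept every mouse, and 3 to 9 lost and 0 to 10 gained with a mouse left out. Where the counts had to sum to 50, 63 chain ratio pairs passed between tissues in place of 110, with fewer pairs tested. Between arms, 0 to 1 ratio tests passed with a mouse left out. With the mouse as a replicate block 172 in place of 173 tissue pairs passed, with 5 calls lost and 4 gained; no replicate block gave 118 ratio pairs, and 447 in place of 75 genes for the arm effect between tissues, none of them a chain. That count of genes was 27 by limma-voom with the block and 3 without the libraries in doubt. The number of arm estimates below 0 ranged from 35 of 47 to 48 of 54 over the alternatives and from 37 to 45 with a mouse left out. Depth limits the chains in marrow most, where Col3a1 had 33 counts over the 12 control libraries.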
